A study of Mus musculus with 4 samples.

Results

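Astrocytes cultured from the subventricular zone (SVZ) were compared with astrocytes cultured from the olfactory bulb (OB), gene by gene, using the pair of arrays whose titles name those regions. Both cultures came from CD-1 mice, an outbred strain, at postnatal day 3. No genetic change, transgene or drug treatment is named for either culture. The cells were plated in medium with 10% fetal bovine serum, shaken at 200 rpm to enrich astroglia and replated as monolayers, and 2 µg of total RNA went to a mouse Affymetrix expression array. The series holds 4 such arrays, 1 each for the SVZ, the OB, the ventral mesencephalon and the hippocampus. The text of the series speaks of 4 littermate pups and of tissue pooled from 3 pups, so how many animals stand behind each culture is not settled. With 1 array per region there was no replicate: every difference is given as a size, no test was possible, and region cannot be told apart from the dissection, culture, RNA preparation or array of that region.

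A total of 12393 genes were named by at least 1 probe set that pairs with a single gene, and 7547 of them (60.9%) were compared because their signal lay above a floor on the SVZ array, the OB array or both. The floor, 122.1 signal units, was the median over all probe sets and all 4 arrays, and it stands in for the detection calls that were not used here. Signals below the floor were raised to it before a fold was taken, so such a fold is a lower bound and is written "at least". Of the genes compared, 6281 were above the floor in both cultures, 622 in the SVZ culture only and 644 in the OB culture only. The other 4846 genes were below the floor in both. A signal belongs to its own probe set, so levels are compared between cultures and never between genes.

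Astrocytes are the glial cells that take up glutamate and potassium, supply neurons with metabolites and shape synapses. The postnatal SVZ lines the lateral ventricle and holds neural stem cells that share many genes with astrocytes and radial glia; their neuroblasts migrate to the olfactory bulb. The olfactory bulb is a layered relay of the sense of smell, wrapped in meninges and reached by olfactory ensheathing glia, and glial cultures of any brain region can also carry microglia and meningeal fibroblasts.

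Most genes had similar signals in both cultures. The difference was within 1.5-fold for 4791 genes (63.5%), and the median log2 difference, SVZ minus OB, was -0.01. At 2-fold or more, 718 genes (9.51%) were higher in the SVZ culture and 666 (8.82%) were higher in the OB culture. These shares over all genes are the background for the 2-fold counts of each list below. At 8-fold or more the counts were 56 (0.742%) and 94 (1.25%). The deposited signals had been scaled to one common mean per array, and the 18 probe sets for bacterial RNAs added at hybridisation were all brighter on the SVZ array, by 1.3-fold to 1.52-fold with a median of 1.42-fold. If the arrays are set equal on those added RNAs instead, the median difference moves to -0.48 and the counts become 372 higher in the SVZ culture and 1439 higher in the OB culture. The SVZ share of the 2-fold genes is then 20.5% in place of 51.9%. All differences below are given on the deposited scale, and where that second scale turns a list's median from one sign to the other, its value is given too.

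**Figure D1:**
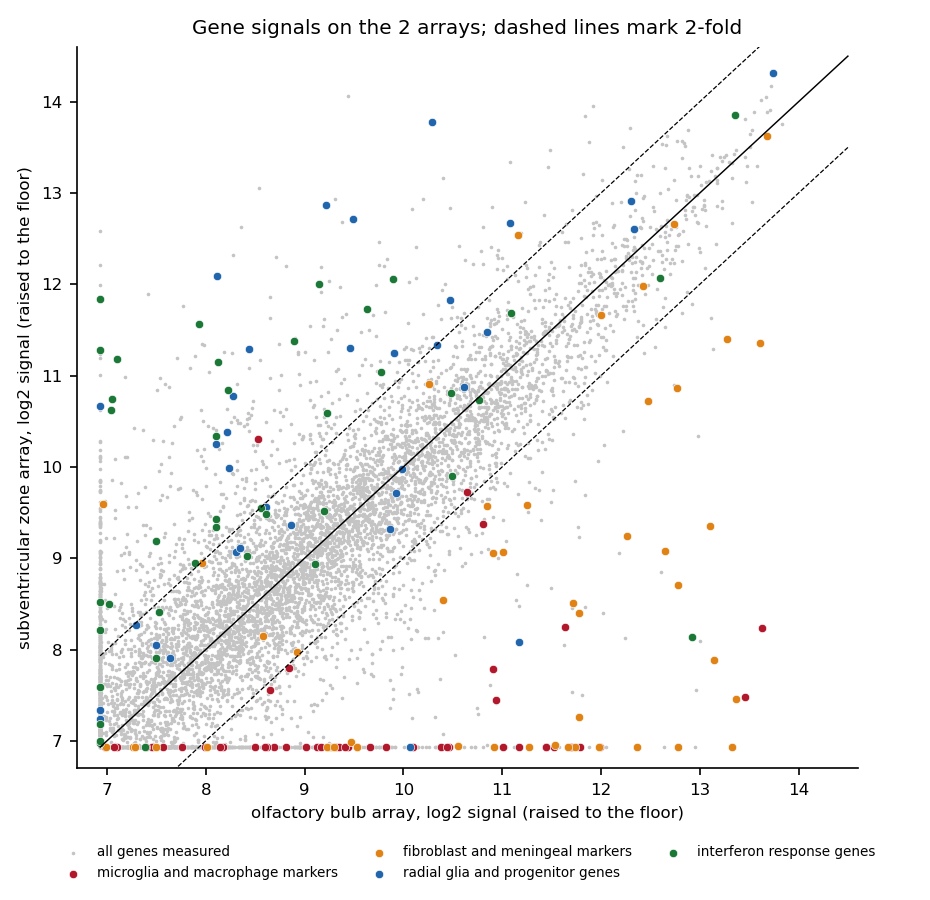
Each grey point is 1 of the 7547 genes compared, with its log2 signal on the OB array (horizontal) and on the SVZ array (vertical), both raised to the floor of 122.1; the solid line marks equality and the dashed lines 2-fold. Microglia (red) and fibroblast (orange) markers lie mostly below the lower dashed line, on the OB side, while interferon response genes (green) and radial glia genes (blue) lie mostly above equality.

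The 15 genes with the widest difference toward the SVZ culture are given first. Igfbp3, which binds insulin-like growth factors, had a signal of 6151 in the SVZ culture and 93.8 in the OB culture, at least 50.4-fold higher. Ntn1, the axon guidance cue netrin-1, had 4729.6 against 69.6, at least 38.7-fold higher. Crym, which binds thyroid hormone in the cytosol, had 4089 against 103, at least 33.5-fold higher. In each of these genes the OB signal was below the floor and the SVZ signal was far above it. Lcn2, the iron-carrier protein lipocalin-2 of reactive astrocytes, was high on the SVZ array at 17145 and clearly above the floor on the OB array at 694, a 24.7-fold difference. Spon1, a secreted extracellular matrix protein also called F-spondin, had 2342 in the SVZ culture and 3.6 in the OB culture, at least 19.2-fold higher. The second probe sets of Ntn1 and Spon1 were below the floor in both cultures. Noct, the circadian enzyme nocturnin, had 6312 and 328, 19.3-fold higher. Pim1, a serine/threonine kinase induced by cytokines, had 2056 and 55.6, at least 16.8-fold higher. Low signals were not limited to the OB culture in every case: Spon1 was at 22.9 in the ventral mesencephalon culture and Crym at 65.7 in the hippocampus culture, both below the floor. The rest of the 15 were Cxcl10, Ccl2, Olig1, Cxcl11, Cxcl2, Rsad2, Aldh1l1 and Stmn2, described with their groups.

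The 15 widest differences toward the OB culture are given next. Igf2, the insulin-like growth factor of fetal tissue and meninges, had 10268 in the OB culture and 24.6 in the SVZ culture, at least 84.1-fold higher. A second Igf2 probe set differed the same way by a log2 value of -1.38, far less than the first. Apod, a lipid carrier of glia and fibroblasts, had 7938 against 43, at least 65-fold higher. Lyz2, the lysozyme of macrophages, had 11249 against 179, 62.8-fold higher; the Lyz1 value of 12646 against 303 is uncertain because the genes are near-identical and its probe set is of the kind that can bind related transcripts. Lysozyme and Igf2 signals were thus near the top of the scale in one culture and near or below the floor in the other. Sfrp4, a secreted inhibitor of Wnt signalling, had 6384 in the OB culture and 118 in the SVZ culture, at least 52.3-fold higher. Thbd, the anticoagulant receptor thrombomodulin, had 8004 and 189, 42.4-fold higher. Slc4a10, a sodium bicarbonate transporter, had 3774 and 37.4, at least 30.9-fold higher. Slc4a10 was below the floor on all 3 other arrays, at 96.9 in the ventral mesencephalon culture and 113 in the hippocampus culture. Itm2a, a membrane protein of differentiating mesenchyme, had 8193 in the OB culture and 272 in the SVZ culture, 30.1-fold higher. Col3a1, Dcn, Gjb2, Ptgds, Alcam, Csf1r and Foxc2 made up the rest and are described with their groups.

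**Figure D2:**
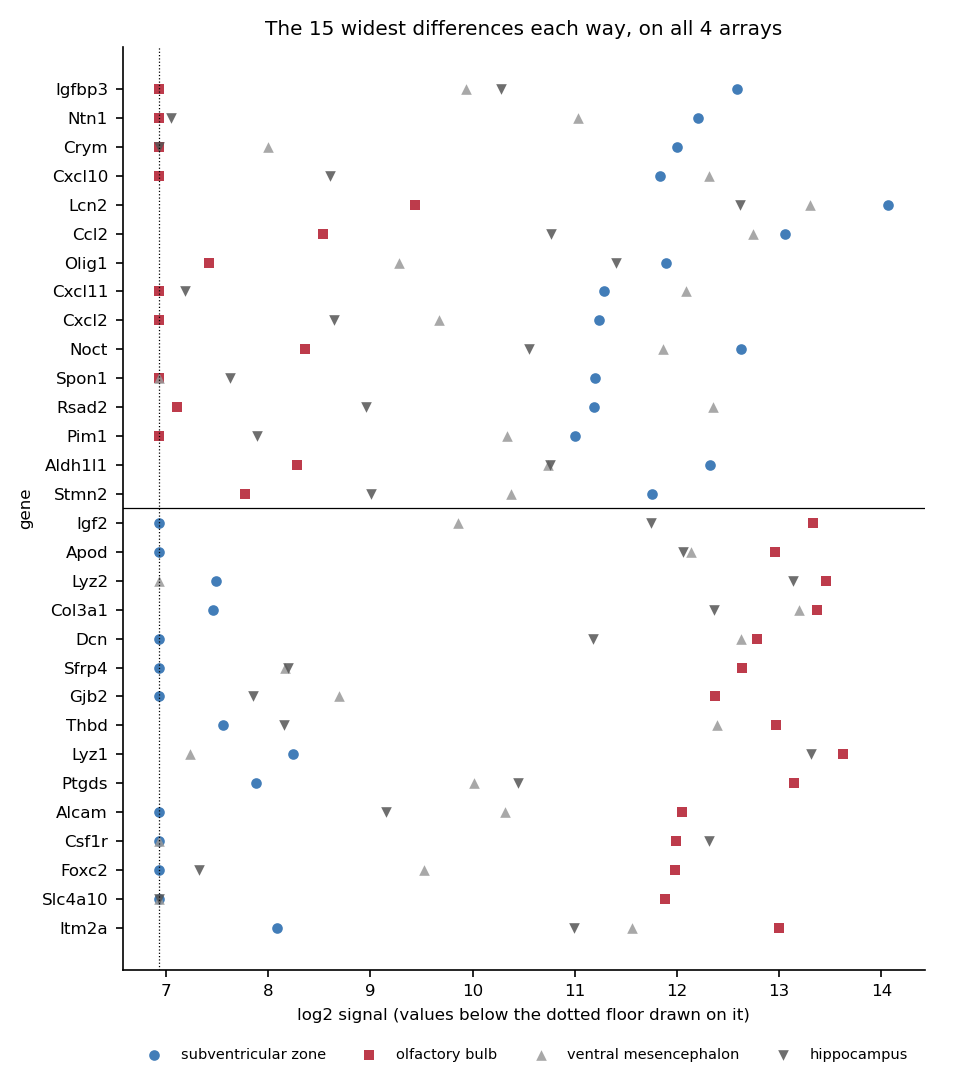
The 15 genes with the widest difference toward the SVZ culture (top) and toward the OB culture (bottom) are plotted by log2 signal on all 4 arrays; values below the floor are drawn on the dotted line. OB squares of the upper block and SVZ circles of the lower block lie to the left, many of them on the floor, while the signals of the other 2 cultures spread widely, with Lyz2 at 9016 in the hippocampus culture and 82.3 in the ventral mesencephalon culture.

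The astrocyte identity of both cultures was checked first. Of 41 astrocyte markers on the array, 30 were above the floor in the SVZ culture and 32 in the OB culture, and their summed signals were 77240 and 72791. Gfap, the astrocyte intermediate filament, had 3112 in the SVZ culture and 3800.2 in the OB culture, 1.2-fold lower in the former. Glul, the glutamine synthetase that detoxifies glutamate, had 3356 and 3948, 1.2-fold lower in the SVZ culture. A second Glul probe set gave a wider log2 difference of -1.41, and a second Gfap probe set gave -0.57. Of the 33 markers compared, 10 were 2-fold or more higher in the SVZ culture and 6 in the OB culture, with a median log2 difference of 0.31 that becomes -0.15 with the added RNAs set equal.

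The astrocyte markers therefore did not move as one block, and several transport genes pointed in opposite directions. Aldh1l1, a folate enzyme used as a pan-astrocyte marker, had 5106 in the SVZ culture and 311 in the OB culture, 16.4-fold higher. Its second probe set was below the floor in both cultures and so did not show this difference. Mlc1, a membrane protein of astrocyte endfeet, had 2455 against 292, 8.4-fold higher. Kcnj10, the inward rectifier potassium channel Kir4.1, had 2667 against 476, 5.6-fold higher. Slc1a3, the glutamate transporter GLAST, stood at 2533 in the SVZ culture and 706 in the OB culture, 3.6-fold higher. Aqp4, the water channel of endfeet, was at 4916 and 1574, 3.1-fold higher. These channels and carriers for potassium, glutamate and water were thus higher in the SVZ culture, whereas the connexins that couple astrocytes and meningeal cells were higher in the OB culture. Gjb6, connexin 30, had 1313 in the OB culture and 13.6 in the SVZ culture, at least 10.8-fold higher. Gja1, connexin 43, had 9010.4 against 2505, 3.6-fold higher. Gjb2, connexin 26, which is also a meningeal gene, had 5291 against 88.3, at least 43.3-fold higher. Among further markers higher in the OB culture, Pla2g7, a lipid hydrolase, had 2484 against 90.3, at least 20.3-fold higher. Slc4a4, an electrogenic sodium bicarbonate transporter, had 1076 against 323, 3.3-fold higher; with probe sets that can bind several transcripts left out its log2 difference was -0.91, just under 2-fold. S100b, a calcium-binding protein of mature astrocytes, was at 277 in the OB culture and below the floor in the SVZ culture at 33.6, at least 2.3-fold lower there, though the mean over its probe sets gave a log2 difference of -0.96.

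The wider list of glutamate, GABA, potassium and water handling held 12 members higher in the SVZ culture and 6 higher in the OB culture of 31 compared, with a median of 0.17 that becomes -0.32 with the added RNAs set equal. Kcnk1, a background potassium channel, had 788 in the SVZ culture and 126 in the OB culture, 6.3-fold higher, with 0.61 on the log2 scale from its second probe set. Car2, a carbonic anhydrase, had 750.4 and 83.7, at least 6.1-fold higher. In the other direction, Slc7a11, the cystine and glutamate exchanger, had 934 in the OB culture and 164 in the SVZ culture, 5.7-fold higher. Aqp1, the water channel of choroid plexus and sensory glia, had 929 and 31, at least 7.6-fold higher.

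Genes of radial glia and neural progenitors leaned to the SVZ culture: 14 of 34 were 2-fold or more higher there against 2 in the OB culture, and the median was 0.86. Fabp7, the brain lipid-binding protein of radial glia, had 14077 in the SVZ culture and 1249.7 in the OB culture, 11.3-fold higher. Prom1, the stem cell surface protein CD133, had 1624 and 111, at least 13.3-fold higher. Vcam1, an adhesion molecule of SVZ stem cells that cytokines also induce, had 7483 and 593, 12.6-fold higher. Nes, the progenitor filament nestin, had 1219 against 274, 4.4-fold higher in the SVZ culture. Vim, the filament vimentin that all cultured glia and fibroblasts carry, was high in both cultures, at 20416 and 13737, a difference of 1.5-fold. Metrn, a secreted factor of glial progenitors, had the widest difference of the list at 4350.4 against 276, 15.8-fold higher, but its second probe set gave a log2 difference of only 0.50. The exceptions were genes that SVZ progenitors also carry: Egfr, the epidermal growth factor receptor, had 1072 in the OB culture and 117 in the SVZ culture, at least 8.8-fold higher, with a log2 difference of -0.99 when its probe sets are averaged. Hopx, a homeodomain protein of radial glia and quiescent stem cells, had 2300.2 in the OB culture and 272 in the SVZ culture, 8.5-fold higher.

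Neuronal and oligodendrocyte lineage genes were mostly below the floor, and a small number of them separated the cultures. Of 43 neuronal markers on the array 13 were compared, 5 of them higher in the SVZ culture and 2 in the OB culture, with a median of 0.04 that becomes -0.04 with the added RNAs set equal. Stmn2, a tubulin regulator of young neurons, had 3465 in the SVZ culture and 218 in the OB culture, 15.9-fold higher. Uchl1, a neuronal deubiquitinase, had 1491 and 215, 6.9-fold higher. Gad1, which makes GABA, had 671 and 47.4, at least 5.5-fold higher, though its second probe set was below the floor in both cultures. Tubb3, the neuronal tubulin, chosen after its value was seen, stood at 76.4 in the SVZ culture and 123 in the OB culture, so it was within a few units of the floor or below it. Reln, the large secreted protein of Cajal-Retzius and mitral cells, differed the other way, with 542 in the OB culture and 20.9 in the SVZ culture, at least 4.4-fold higher. Of 19 oligodendrocyte lineage markers on the array 8 were compared, 3 of them higher in the SVZ culture and 1 in the OB culture, with a median of 0.55 that becomes -0.12 with the added RNAs set equal and -0.72 with the floor at the 25th percentile of all signals. Olig1, a transcription factor of that lineage, had 3805 in the SVZ culture and 171 in the OB culture, 22.2-fold higher. Its partner Olig2, chosen after its value was seen, had 244 against 7.5, at least 2.0-fold higher and just short of being counted. Nkx2-2, a factor of ventral progenitors and oligodendrocyte precursors, had 283 against 7.4, at least 2.3-fold higher. Pdgfra, the receptor of oligodendrocyte precursors and of fibroblasts, chosen likewise, was 4.4 in the SVZ culture and 156 in the OB culture, so lineage factors and this precursor receptor did not point the same way. Cldn11, the tight junction protein of myelin and of the arachnoid, had 3052 in the OB culture and 33 in the SVZ culture, at least 25-fold higher.

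Markers of microglia and macrophages had the lowest median of all lists with 10 or more members compared, -2.35. Of 54 on the array, 48 were above the floor in the OB culture and 10 in the SVZ culture, and their summed signals were 76469 and 5417. Of the 48 compared, 39 were 2-fold or more higher in the OB culture and 1 was higher in the SVZ culture. In bulk RNA such as this, fewer cells of a type and less RNA per cell cannot be told apart. Csf1r, the receptor that keeps microglia alive, had 4073 in the OB culture and 55.6 in the SVZ culture, at least 33.4-fold higher, with -2.78 on the log2 scale from its second probe set. Ctss, the cysteine protease cathepsin S, had 3548 and 46.3, at least 29.1-fold higher. C1qa, a chain of the complement initiator C1q, had 3325 and 1.5, at least 27.2-fold higher. Defining genes of the lineage were below the floor on the SVZ array. Chosen after their values were seen, they included Tyrobp, the adaptor of microglial receptors, at 20.7 against 2940.2 in the OB culture, and Spi1, the factor PU.1 that sets macrophage identity, at 25.7 against 516. The single member higher in the SVZ culture was Tlr2, a receptor for bacterial lipoproteins that astrocytes can also carry, at 1271 against 369.6, 3.4-fold higher. Hippocampus and OB cultures had similar sums of these markers, 92892 and 76469, and the ventral mesencephalon culture was as low as the SVZ culture at 4225.

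Genes of complement, lysosomes and phagocytosis followed in part. Of 17 complement genes compared, 9 were higher in the OB culture and 2 in the SVZ culture, with a median of -1.18. Over the 7 that were above the floor in both cultures the median was 0.31. C1qb and C1qc, the other C1q chains, stood in the OB culture at 1416 and 2054, against 16.1 and 0.7 in the SVZ culture, both below the floor there. The C1r and C1s proteases that join C1q went the other way. C1s1 had 1491 in the SVZ culture and 312 in the OB culture, 4.8-fold higher. C1ra had 1002 and 465, 2.2-fold higher. The 3 C1q chains and 2 C1 proteases thus differed in opposite directions between the cultures. C3ar1, a receptor for the complement fragment C3a, had 679 in the OB culture and 29.2 in the SVZ culture, at least 5.6-fold higher. Of 45 lysosome and phagocytosis genes, 13 were 2-fold or more higher in the OB culture and 0 in the SVZ culture, with a median of -0.37. Ctsk, the collagen-degrading cathepsin K, had 1228 and 23.5, at least 10.1-fold lower in the SVZ culture. Ctsh, a lysosomal aminopeptidase, had 2281 and 454, 5.0-fold higher. Cd68, the macrophage lysosomal membrane protein, had 1964 and 175, 11.2-fold higher. In this list 32 of 45 genes stayed within 2-fold, so most lysosomal genes had similar signals. The list shares 8 of its members with other lists, and what microglia contribute to it was not tested.

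Major histocompatibility genes were counted by class. Of 17 class I and antigen processing genes, 4 were higher in the SVZ culture and 0 in the OB culture, with a median of 0.37. H2-K1, a class I heavy chain, had 13449 in the SVZ culture and 5038 in the OB culture, 2.7-fold higher. H2-D1, another heavy chain, had 11322 and 2868, 3.9-fold higher, but the mean over its probe sets put it slightly lower in the SVZ culture, at -0.23 on the log2 scale. Class I heavy chains are alike in sequence, so signals can be shared between them and both values are uncertain. Psmb8, a subunit of the immunoproteasome, had 1543 and 601, 2.6-fold higher. Of 8 class II pathway genes compared, 1 was higher in the SVZ culture and 2 in the OB culture, with a median of 0.02 that becomes -0.50 with the added RNAs set equal. Cd74, the class II invariant chain, had 475 in the SVZ culture and 37.7 in the OB culture, at least 3.9-fold higher. Ifi30, a lysosomal thiol reductase of antigen presenting cells, had 1276 in the OB culture and 451 in the SVZ culture, 2.8-fold higher. The summed signals of the class II list were 2019 in the SVZ culture and 5758 in the OB culture. With the floor at the 70th percentile of all signals the log2 difference of Cd74 was 0.40. What microglia contribute to these genes was not tested.

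Interferon response genes were the list with the largest median toward the SVZ culture, 1.24, among the lists with 10 or more members compared. Of 41 compared, 22 were 2-fold or more higher in the SVZ culture and 1 in the OB culture, beside 9.51% and 8.82% of all genes. The promoters of genes in this response are known to carry elements bound by interferon regulatory factors. The windows printed here come from the 250 bases upstream of the RefSeq start, with each match to the core AANNGAAA on either strand in capitals. They belong to the 4 members with the largest difference toward the SVZ culture among those that hold the core there. The windows are shown so that the element can be seen beside the differences.
Cxcl10: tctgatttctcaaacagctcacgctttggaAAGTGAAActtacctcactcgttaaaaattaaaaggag
Rsad2: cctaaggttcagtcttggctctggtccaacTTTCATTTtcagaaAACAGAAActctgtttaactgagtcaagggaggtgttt
Bst2: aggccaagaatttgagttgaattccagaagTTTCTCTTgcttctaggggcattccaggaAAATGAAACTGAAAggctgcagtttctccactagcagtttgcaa
Ifit3: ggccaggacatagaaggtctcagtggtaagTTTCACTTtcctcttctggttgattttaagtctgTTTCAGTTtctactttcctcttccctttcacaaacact

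These windows run 5′ to 3′ on the strand of each gene and come from the RefSeq promoter table of build GRCm38.p6. They lie at chr5:92349063-92349130 on the minus strand for Cxcl10, chr12:26456521-26456602 on the minus strand for Rsad2, chr8:71537557-71537659 on the minus strand for Bst2 and chr19:34583343-34583444 on the plus strand for Ifit3, all within the 250 bases upstream of the gene's start. The capitals mark 1 match in Cxcl10, 2 in Rsad2, 3 in Bst2, of which 2 overlap, and 2 in Ifit3; a match that begins with T is the core read on the other strand. Of 32 interferon response genes with a promoter in the table, 16 held the core, and of the 17 among them that were 2-fold apart, 9 (52.9%) did. The share was 19.2% of the 6165 compared genes with a promoter and 23.9% of all 27025 genes with a promoter in the table. Among microglia and macrophage markers 12 of 32 (37.5%) held it as well. The core GAGGAAGT bound by the macrophage factor PU.1, searched on both strands, was found for 1 of those 32 genes (3.1%). Its share was 2.6% of the compared genes and 2.8% of all genes with a promoter. A match describes letters in this window and nothing about binding in these cells.

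The 4 genes with printed windows were chosen by the rule for those windows. Cxcl10, a chemokine that attracts T cells, had 3661 in the SVZ culture and 114 in the OB culture, at least 30-fold higher. Rsad2, the antiviral enzyme viperin, had 2331 and 138, 17-fold higher. Bst2, the antiviral membrane tether tetherin, had 3035 and 245, 12.4-fold higher. Ifit3, an antiviral protein of the IFIT family, had 4107 and 568, 7.2-fold higher. Irf7, the regulatory factor that amplifies the response, had 1714 against 133, 12.9-fold higher in the SVZ culture. Cxcl11, a chemokine sharing its receptor with Cxcl10, had 2496 and 13, at least 20.4-fold higher, though its second probe set was below the floor in both cultures. These genes were picked for their difference toward the SVZ culture, so their shared direction follows from the choice. Of the 41 members compared, 18 stayed within 2-fold. The single member 2-fold or more higher in the OB culture was Ifitm1, a membrane protein of the response also made in developing tissues. It had 7749 in the OB culture and 282 in the SVZ culture, 27.5-fold higher. The summed signals of the list were 73481 in the SVZ culture, 41513 in the OB culture, 127609 in the ventral mesencephalon culture and 34692 in the hippocampus culture.

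Chemokines and cytokines leaned the same way: of 27 compared, 15 were higher in the SVZ culture and 4 in the OB culture, with a median of 1.10. Ccl2, which attracts monocytes, had 8504 in the SVZ culture and 372 in the OB culture, 22.8-fold higher. Cxcl2, which attracts neutrophils, had 2415 and 60.4, at least 19.8-fold higher. Il6, an acute phase cytokine chosen after its value was seen, had 649 in the SVZ culture and 42 in the OB culture, at least 5.3-fold higher. Lif, a related cytokine that drives astrocyte differentiation, had 1007 and 50.3, at least 8.2-fold higher. The second Lif probe set was below the floor in both cultures. Ligands higher in the OB culture were Tgfb1, a transforming growth factor, at 867 against 258, 3.4-fold higher, and Cxcl12, a chemokine of meninges, at 1773 against 790.0, 2.2-fold higher. Ccl9, a macrophage chemokine, had 394 and 41.2, at least 3.2-fold higher; with its probe sets averaged its log2 difference was -0.91. Receptors did not lean one way, with 6 of 28 higher in the SVZ culture and 7 in the OB culture and a median of -0.15. Il4ra, the interleukin-4 receptor chain, had 428 in the SVZ culture and 107 in the OB culture, at least 3.5-fold higher; averaging its probe sets gave 0.82 on the log2 scale. Tlr3, the sensor of double-stranded RNA, had 621 and 193, 3.2-fold higher; leaving out shared probe sets gave 0.91.

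Reactive astrocyte genes, those that astrocytes induce after injury or inflammation, were higher in the SVZ culture in 14 of 33 and in the OB culture in 6, with a median of 0.89; 19 of the list belong to other lists as well. Ptx3, a secreted pentraxin, had 7825 in the SVZ culture and 635 in the OB culture, 12.3-fold higher. Steap4, a metalloreductase, had 4724 and 449, 10.5-fold higher. Serving as an example of the other direction, Serping1, the C1 inhibitor, had 4024 in the OB culture and 1074 in the SVZ culture, 3.7-fold higher. Gfap, the classic gene of the list, was within 2-fold as given above.

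Immediate early genes, which stimuli switch on within minutes, were higher in the SVZ culture in 15 of 28 and in the OB culture in 1, with a median of 1.08. Maff, a small Maf transcription factor, had 2009.5 in the SVZ culture and 186 in the OB culture, 10.8-fold higher. Nr4a1, an orphan nuclear receptor, had 1162 and 92.9, at least 9.5-fold higher. Gadd45a, a growth arrest gene, had 2174 and 229.7, 9.5-fold higher. Gadd45g, of the same family, had 4204 and 606, 6.9-fold higher. Fos, the archetype of the group, chosen after its value was seen, was 6405 against 4034, 1.6-fold higher, below the 2-fold mark. Btg2, an antiproliferative gene, was the exception at 2439.6 in the OB culture and 418 in the SVZ culture, 5.8-fold higher, although its second probe set gave a log2 difference of only -0.40. Sums of the list were 78797 in the SVZ culture and 38074 in the OB culture, beside 89962 and 30097 in the ventral mesencephalon and hippocampus cultures.

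Fibroblast and meningeal markers were the second large group on the OB side. Of 54 on the array, 48 were above the floor in the OB culture and 31 in the SVZ culture, with summed signals of 182673 and 52532. Of the 48 compared, 34 were 2-fold or more higher in the OB culture and 2 in the SVZ culture, with a median of -2.27. Col3a1, a fibrillar collagen of connective tissue, had 10549 in the OB culture and 176 in the SVZ culture, 59.9-fold higher. Dcn, the small proteoglycan decorin, had 7039 and 63.9, at least 57.7-fold higher. Ptgds, the prostaglandin D synthase of the arachnoid, had 9048 and 236, 38.4-fold higher. Part of this list was above the floor in the SVZ culture: Col1a2, a chain of collagen I chosen after its value was seen, was at 2618 there, against 12488 in the OB culture, 4.8-fold higher. The members higher in the SVZ culture were Fbln2, a matrix glycoprotein, at 772 against 125, 6.2-fold higher, and Islr, a marker of mesenchymal cells, at 5941 against 2283, 2.6-fold higher. Of the 666 genes higher in the OB culture, 73 belonged to the microglia or fibroblast list. Each of these lists held 48 of the 7547 genes compared. Both lists are short, so the count does not measure what such cells contribute to the difference, which was not tested.

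Matrix genes were higher in the OB culture as a group, in each of the lists for collagens, collagen processing, basement membrane and metalloproteinases. For collagens the counts were 11 of 20 in the OB culture and 3 in the SVZ culture, with a median of -1.21. Col6a2, a chain of the microfibrillar collagen VI, had 2972 in the OB culture and 124 in the SVZ culture, 23.9-fold higher. Col6a1, its partner chain, had 3359 and 364, 9.2-fold higher. Col14a1, which binds to collagen fibrils, had 899 and 13.5, at least 7.4-fold higher. The 3 exceptions were network or fibril chains: Col4a6, a basement membrane chain, had 423 in the SVZ culture and 52.1 in the OB culture, at least 3.5-fold higher. Col4a5, its neighbour in the same network, had 1268 and 583, 2.2-fold higher. Col5a3, a chain of the fibril collagen V, had 251 and 64.5, at least 2.1-fold higher; averaging its probe sets brought it to 0.52 on the log2 scale. Enzymes that process collagen were higher in the OB culture in 8 of 17 and in the SVZ culture in 0, with a median of -0.92. Pcolce, which enhances procollagen cleavage, had 7030.2 and 419, 16.8-fold higher. Lox, which cross-links collagen and elastin, had 8828 and 655, 13.5-fold higher. Basement membrane and elastic fibre genes were higher in the OB culture in 15 of 28 and in the SVZ culture in 3, with a median of -1.09. Nid1, the linker protein nidogen-1, had 3599.5 and 182, 19.8-fold higher. Lama5, a laminin chain, was among the 3 on the other side at 491 in the SVZ culture and 64.2 in the OB culture, at least 4.0-fold higher.

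Metalloproteinases and their inhibitors were higher in the OB culture in 12 of 25 and in the SVZ culture in 3, with a median of -1.0. Mmp2, a gelatinase of fibroblasts, had 3511 in the OB culture and 154 in the SVZ culture, 22.8-fold higher. Mmp16, a membrane-bound metalloproteinase, had 1844 and 124, 14.9-fold higher. Mmp3, a stromelysin induced by cytokines, differed the other way, at 1441 in the SVZ culture and 305 in the OB culture, 4.7-fold higher. Proteoglycans and matricellular proteins split evenly, 13 of 36 each way with a median of -0.07. On the SVZ side stood Ccn5, a secreted CCN protein, at 1582 against 73.8, at least 13-fold higher. Tnc, the glial matrix protein tenascin-C, was at 1753 against 311, 5.6-fold higher. Cd44, the hyaluronan receptor, was at 7326 against 1425, 5.1-fold higher. On the OB side stood Postn, the matrix protein periostin, at 2471 against 11.2, at least 20.2-fold higher. Ogn, the small proteoglycan osteoglycin, was at 6417 against 539.8, 11.9-fold higher. Of the members named here, Ccn5, Tnc and Cd44 thus lay on the SVZ side and Postn and Ogn on the OB side.

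Transcription factors of meninges and neural crest mesenchyme were higher in the OB culture in 14 of 22 and in the SVZ culture in 2, with a median of -1.86. Foxc2, a forkhead factor of mesenchyme, had 4041 in the OB culture and 19.8 in the SVZ culture, at least 33.1-fold higher. Foxd1, another forkhead factor, had 3407 and 17.1, at least 27.9-fold higher. Zic1, a zinc finger factor of meninges and dorsal neural tissue, had 3259 and 82.9, at least 26.7-fold higher. Osr1, a factor of embryonic mesenchyme, had 1931 and 81.8, at least 15.8-fold higher. Each of these was below the floor in the SVZ culture. The 2 members on the SVZ side were Sox9, which is also an astrocyte factor, at 1208 against 356, 3.4-fold higher, and Msx2, a homeobox target of BMP signalling, at 405 against 98.8, at least 3.3-fold higher. What the fibroblast markers contribute to the matrix and transcription factor lists was not tested; the lists share members, 13 of the transcription factor list being on others too.

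Forebrain patterning factors divided between the cultures, with 4 of 14 compared higher on each side and a median of 0.42. That median becomes -0.08 with the floor at the 70th percentile of all signals, and it is -0.79 over the 5 factors above the floor in both cultures. Lhx2, a LIM homeobox factor that maintains forebrain progenitors, had 2027 in the SVZ culture and 145 in the OB culture, 14-fold higher. Meis2, a homeobox factor of striatal and SVZ lineages, had 1108 and 117, at least 9.1-fold higher. Six3, a homeobox factor of the anterior forebrain, had 857 and 15.8, at least 7.0-fold higher, but a mean over its probe sets gave 0.94 on the log2 scale. On the OB side, Nr2f2, the nuclear receptor COUP-TFII, had 3167 in the OB culture and 265 in the SVZ culture, 11.9-fold higher. Zic5, a zinc finger factor, had 827 and 65, at least 6.8-fold higher, but its second probe set gave a log2 difference of -0.14. Nr2f1, the nuclear receptor COUP-TFI, had 1609 and 733, 2.2-fold higher. Of 32 midbrain and hindbrain factors on the array, 3 were above the floor in at least 1 of the 2 cultures. Irx3, an Iroquois factor, had 950.0 in the OB culture and 189 in the SVZ culture, 5.0-fold higher. Irx5, of the same family, had 308 and 33.3, at least 2.5-fold higher. Nkx6-2, a ventral homeobox factor also found in the embryonic forebrain, had 344 in the SVZ culture and 13.9 in the OB culture, at least 2.8-fold higher.

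Markers of other cells that such dissections could hold were checked as well. Of 30 olfactory ensheathing and Schwann cell markers on the array, 18 were above the floor in the OB culture and 11 in the SVZ culture. Of the 22 compared, 8 were higher in the OB culture and 4 in the SVZ culture, with a median of -0.42. The sums were nearly equal, at 21592 in the OB culture and 21616 in the SVZ culture, but single genes weighed heavily in them. Apod gave 7938 of the OB sum and Fabp7 gave 14077 of the SVZ sum. Over the 7 that were above the floor in both cultures the median was 0.23. Ngfr, the p75 neurotrophin receptor of ensheathing glia, had 662 in the OB culture and 13.5 in the SVZ culture, at least 5.4-fold higher; averaging its probe sets gave -0.81 on the log2 scale. Omd, the keratan sulphate proteoglycan osteomodulin, had 1278 and 42.4, at least 10.5-fold higher. Sostdc1, a secreted BMP and Wnt antagonist, went the other way with 421 in the SVZ culture and 3.0 in the OB culture, at least 3.4-fold higher. Sox10, the defining factor of these glia, chosen after its value was seen, was 136 in the OB culture, just above the floor, and 44.2 in the SVZ culture.

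Ependymal genes, which build the motile cilia of the ventricle wall, were above the floor in 7 of 16 in the SVZ culture and 4 of 16 in the OB culture. The hippocampus culture had 13 above the floor and the ventral mesencephalon culture 4. Foxj1, the master factor of motile cilia, had 919 in the SVZ culture and 74.4 in the OB culture, at least 7.5-fold higher. Tppp3, a tubulin-binding protein, had 484 and 164, 3.0-fold higher. In the hippocampus culture Foxj1 and Tppp3 were higher than in the SVZ culture, at 1909.5 and 1330.1. Choroid plexus genes showed 2 of 8 higher on each side, with a median of 0.02 that becomes -0.48 with the added RNAs set equal. Wfdc2, a secreted epithelial protein, had 500.1 in the SVZ culture and 9.1 in the OB culture, at least 4.1-fold higher. Slco1c1, a thyroid hormone transporter of choroid plexus, vessels and astrocytes, had 507 in the OB culture and 85.4 in the SVZ culture, at least 4.2-fold higher. Of the 7 ciliary genes compared 6 had the higher signal in the SVZ culture, whereas choroid plexus genes gave no common direction.

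Vessel-wall genes gave mixed values. Pericyte and smooth muscle markers were higher in the OB culture in 6 of 19 and in the SVZ culture in 1, with a median of -0.31. Vtn, the matrix protein vitronectin, had 1110.2 in the OB culture and 5.0 in the SVZ culture, at least 9.1-fold higher. Cnn1, a contractile protein of smooth muscle, had 1698 in the SVZ culture and 132 in the OB culture, 12.8-fold higher. Of 23 endothelial markers on the array 6 were compared, and 2 of them were higher in the SVZ culture, with a median of 0.04 that becomes -0.16 with the added RNAs set equal. Sox7, a factor of developing vessels, had 666 in the SVZ culture and 23 in the OB culture, at least 5.5-fold higher. Plvap, a protein of fenestrated vessels, had 344 and 28, at least 2.8-fold higher. Red cell and plasma genes were below the floor in both cultures, 0 of 9 being compared. Of 19 lymphocyte and mast cell markers, only Kit, the stem cell factor receptor, was compared, at 273 in the OB culture and 1.5 in the SVZ culture, at least 2.2-fold higher.

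**Figure D3:**
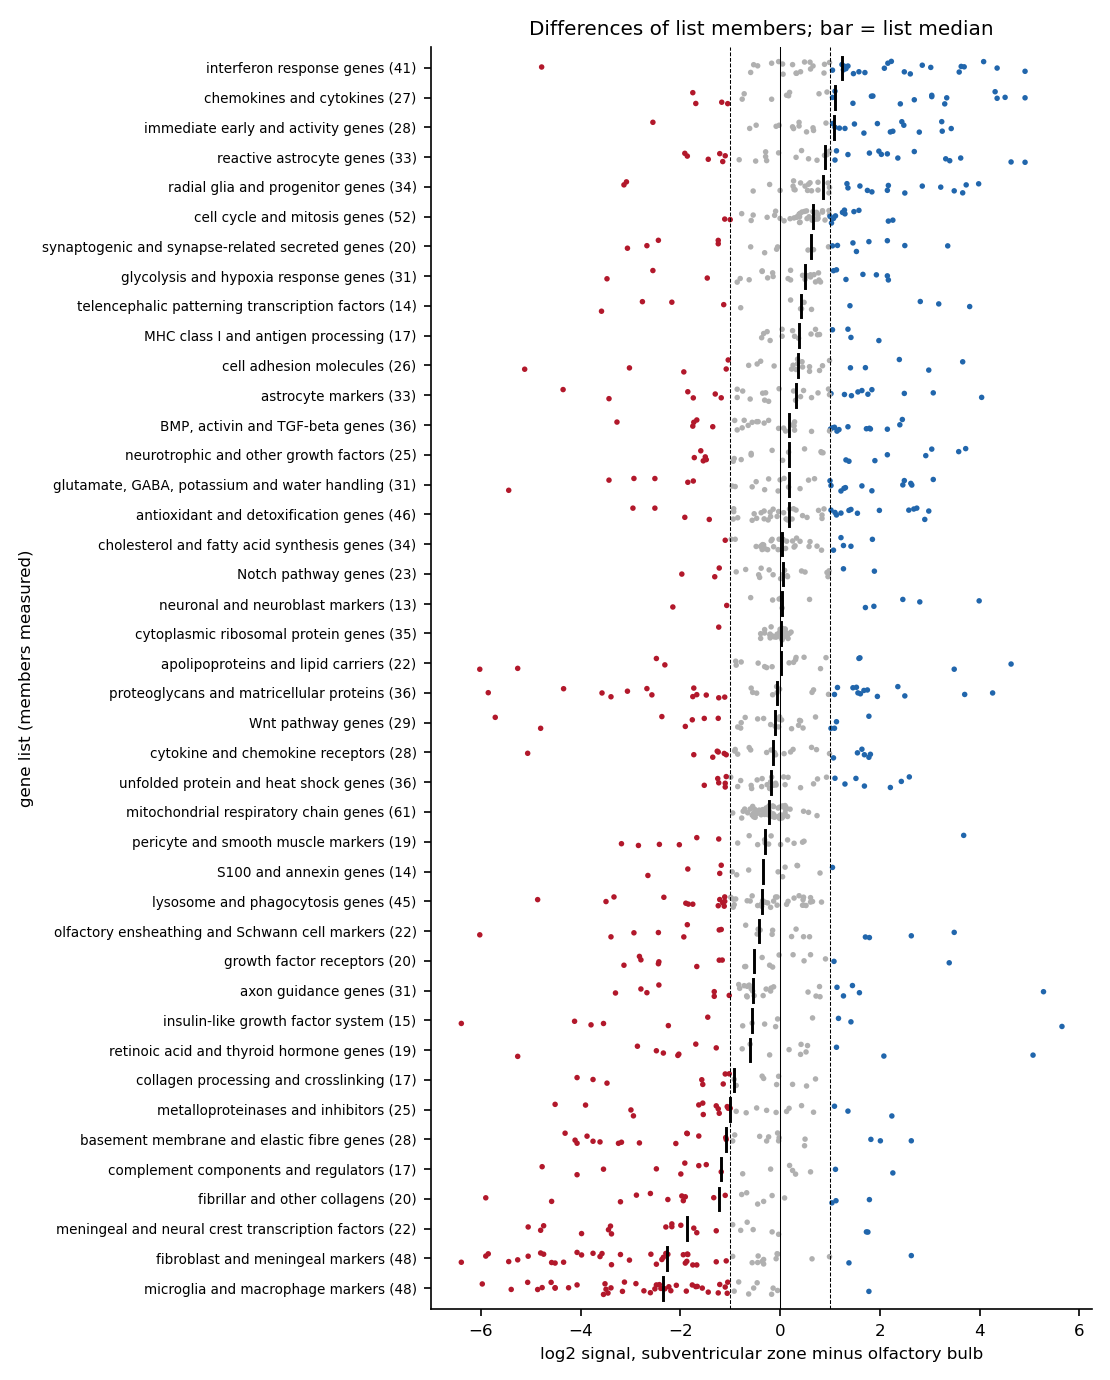
Each point is 1 gene of a list, placed by its log2 difference, SVZ minus OB (horizontal); lists with 10 or more members compared are ordered by their median, the black bar, with the number compared in brackets, and dashed lines mark 2-fold. Medians run from -2.35 for microglia and macrophage markers to 1.24 for interferon response genes, while the 61 respiratory chain genes all lie within 2-fold.

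The insulin-like growth factor system differed in ligands and in binding proteins. Of 15 genes compared, 6 were higher in the OB culture and 3 in the SVZ culture, with a median of -0.56. Igf1, the growth factor ligand made by microglia and mesenchyme, had 1425 in the OB culture and 119.7 in the SVZ culture, at least 11.7-fold higher, so that both ligands, Igf1 and Igf2, were higher there. Igfbp4, a binding protein, had 4852 and 278, 17.4-fold higher. Igfbp6, which prefers Igf2, had 1693 and 20.2, at least 13.9-fold higher. Igfbp3, given above, was the reverse, as was Igfbp7, a related secreted protein, at 4774 in the SVZ culture and 1787 in the OB culture, 2.7-fold higher; averaging the Igfbp7 probe sets gave 0.47 on the log2 scale. Igfbp2, chosen after its value was seen, was nearly equal at 12661 and 13129. The binding proteins thus included members on each side and 1 that was level.

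Other growth factors were higher in the SVZ culture in 8 of 25 and in the OB culture in 5, with a median of 0.17 that becomes -0.10 with the added RNAs set equal. Ereg, the epidermal growth factor family ligand epiregulin, had 1604 in the SVZ culture and 17.2 in the OB culture, at least 13.1-fold higher. Hbegf, a second ligand of that family, had 5029 and 419.7, 12-fold higher. Pdgfb, a platelet-derived growth factor, had 1102 and 145, 7.6-fold higher, with 0.52 on the log2 scale from its second probe set. The 2 EGF family ligands named here were higher in the culture where their receptor Egfr had the lower signal. Ptn, the heparin-binding factor pleiotrophin, had 967 in the OB culture and 322 in the SVZ culture, 3.0-fold higher. Pdgfc, which acts through the Pdgfra receptor, had 1767 and 535, 3.3-fold higher. Growth factor receptors were higher in the OB culture in 8 of 20 and in the SVZ culture in 2, with a median of -0.53 that becomes 0.48 when members of other lists are left out. Ddr2, a collagen receptor, had 863 in the OB culture and 86.9 in the SVZ culture, at least 7.1-fold higher. Fgfrl1, a fibroblast growth factor receptor lacking the kinase, had 2603 in the SVZ culture and 249 in the OB culture, 10.5-fold higher.

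Among Wnt pathway genes 7 of 29 were higher in the OB culture and 4 in the SVZ culture, with a median of -0.10. The shares of all genes compared were 8.82% and 9.51%. Rspo2, a secreted enhancer of Wnt signalling, had 3409 in the OB culture and 11.3 in the SVZ culture, at least 27.9-fold higher. Wnt6, a ligand found in meninges, had 629.7 and 45.8, at least 5.2-fold higher. Wnt7a, a ligand made by neural progenitors and astrocytes, had 420.1 in the SVZ culture and 39 in the OB culture, at least 3.4-fold higher. Of the 2 ligands named here, the meningeal one was thus higher in the OB culture and the neural one in the SVZ culture. BMP, activin and TGF-beta genes were higher in the SVZ culture in 12 of 36 and in the OB culture in 5, with a median of 0.18 that becomes -0.25 with the added RNAs set equal. Inhbb, an activin subunit, had 669 in the SVZ culture and 57.1 in the OB culture, at least 5.5-fold higher. The second Inhbb probe set was below the floor in both cultures. Bambi, a decoy receptor, had 840.0 and 159, 5.3-fold higher. Tgfb3, a transforming growth factor, had 884 and 199, 4.4-fold higher. Bmp4, a ligand that favours astrocyte fate, had 1886 in the OB culture and 195 in the SVZ culture, 9.7-fold higher. Tgfb3 and Tgfb1 therefore pointed in opposite directions.

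Notch and Hedgehog genes were mostly close. Of 23 Notch pathway genes, 2 were higher in the SVZ culture and 3 in the OB culture, beside 9.51% and 8.82% of all genes. Their median was 0.05, which becomes -0.45 with the added RNAs set equal. Dtx1, a Notch target, had 584 in the SVZ culture and 158 in the OB culture, 3.7-fold higher. Jag1, a Notch ligand, had 479 in the OB culture and 86.9 in the SVZ culture, at least 3.9-fold higher, although its second probe set gave a log2 difference of -0.02. Of 7 Hedgehog pathway genes, the single one past 2-fold was Ptch1, the receptor that the pathway itself induces, at 1073 in the SVZ culture and 251 in the OB culture, 4.3-fold higher. The second Ptch1 probe set was below the floor in both cultures.

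Axon guidance genes were higher in the OB culture in 7 of 31 and in the SVZ culture in 5, with a median of -0.55. Besides Ntn1, Unc5b, a netrin receptor, had 351 in the SVZ culture and 128 in the OB culture, 2.7-fold higher. Its relative Unc5c had 1199 in the OB culture and 112 in the SVZ culture, at least 9.8-fold higher. Nrp2, a semaphorin receptor, had 843 and 121, at least 6.9-fold higher. The netrin and its receptors thus included genes on both sides. Adhesion molecules split 5 and 5 of 26, with a median of 0.35 that becomes -0.02 with the added RNAs set equal. Nrcam, a neural cell adhesion molecule, had 2428 in the SVZ culture and 307 in the OB culture, 7.9-fold higher. Cdh2, the neural cadherin, had 4692 and 897, 5.2-fold higher. Alcam, an immunoglobulin adhesion molecule, had 4238 in the OB culture and 122 in the SVZ culture, at least 34.7-fold higher. Cdh11, a mesenchymal cadherin, had 4908 and 606, 8.1-fold higher. N-cadherin and cadherin-11 were thus higher in different cultures.

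Secreted genes linked to synapses were higher in the SVZ culture in 8 of 20 and in the OB culture in 5, with a median of 0.62 that becomes -0.59 when members of other lists are left out. C1ql3, a C1q-like synaptic organiser, had 2594 in the SVZ culture and 254 in the OB culture, 10.2-fold higher. Bdnf, the brain-derived neurotrophic factor, had 598 and 134, 4.4-fold higher. Gpc6, a glypican by which astrocytes promote synapses, had 1278 in the OB culture and 154 in the SVZ culture, 8.3-fold higher. Gpc4, its partner in that role, chosen after its value was seen, had 4723 in the SVZ culture and 2122 in the OB culture, 2.2-fold higher. Thbs2, a synaptogenic thrombospondin, had 1802 in the OB culture and 282 in the SVZ culture, 6.4-fold higher. The pair of glypicans therefore differed in opposite directions.

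Retinoic acid and thyroid hormone genes were higher in the OB culture in 8 of 19 and in the SVZ culture in 3, with a median of -0.60. Aldh1a2, which makes retinoic acid in the meninges, had 618 in the OB culture and 55 in the SVZ culture, at least 5.1-fold higher. Crabp2, a retinoic acid carrier, had 707 and 127, 5.6-fold higher. Rxra, a retinoid receptor, had 887 and 117, at least 7.3-fold higher, though its second probe set was below the floor in both cultures. Rdh10, which makes retinaldehyde, had 2074 in the SVZ culture and 491 in the OB culture, 4.2-fold higher. Aldh1a1, a related dehydrogenase, had 2300.4 and 1051, 2.2-fold higher. Of the retinoic acid enzymes, Aldh1a2 was thus higher in the OB culture and Rdh10 and Aldh1a1 in the SVZ culture.

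Cell cycle genes leaned to the SVZ culture. There 12 of 52 were higher, and 2 were higher in the OB culture, beside 9.51% and 8.82% of all genes. The difference was above zero for 44 of 52, with a median of 0.65. Ccnd1, the cyclin that drives entry into the cycle, had 10374 in the SVZ culture and 2169 in the OB culture, 4.8-fold higher. Rrm2, which makes deoxynucleotides, had 2893 and 645, 4.5-fold higher. Cdt1, which licenses DNA replication, had 1175 and 422, 2.8-fold higher. The 2 exceptions were close to the 2-fold mark. Ccnd3, another cyclin, had 2464 in the OB culture and 1229 in the SVZ culture, 2.0-fold higher, and was under 2-fold, at -0.98 on the log2 scale, after quantile normalization. Cdc20, a mitotic activator, had 745 and 345, 2.2-fold higher, but its unshared probe set pointed the other way, at 0.38 on the log2 scale.

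Metabolic lists were mostly level, with a few wide genes. The 61 respiratory chain genes were all within 2-fold, with a median of -0.22, and of 35 ribosomal protein genes 1 passed 2-fold, with a median of 0.01 that becomes -0.49 with the added RNAs set equal. That gene was Rps25, at 286 in the OB culture and 103 in the SVZ culture. Cox6a1, a subunit of cytochrome oxidase, had 9880.1 in the SVZ culture and 9218 in the OB culture, and Uqcrb, a subunit of complex III, had 10060.2 and 12205. Glycolysis and hypoxia genes were higher in the SVZ culture in 7 of 31 and in the OB culture in 3, with a median of 0.50. Hk2, the inducible hexokinase, had 1109.7 in the SVZ culture and 247 in the OB culture, 4.5-fold higher. Slc2a1, the glucose transporter GLUT1, had 1359.9 and 430.2, 3.2-fold higher. P4ha2, a collagen prolyl hydroxylase, had 1732 in the OB culture and 157 in the SVZ culture, 11-fold higher. Egln3, an oxygen sensor, had 1068 and 182, 5.9-fold higher. Pfkp, a phosphofructokinase of glycolysis, had 2295 and 832, 2.8-fold higher in the OB culture, with -0.82 on the log2 scale from its second probe set.

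Cholesterol and fatty acid synthesis genes stayed within 2-fold in 28 of 34, with 5 higher in the SVZ culture and 1 in the OB culture and a median of 0.05 that becomes -0.42 with the added RNAs set equal. Fads2, a fatty acid desaturase, had 1553 in the SVZ culture and 432 in the OB culture, 3.6-fold higher. Apolipoproteins and lipid carriers split 4 and 4 of 22, with a median of 0.01 that becomes -0.66 with the added RNAs set equal. Pltp, the phospholipid transfer protein, had 4108 in the SVZ culture and 1370.4 in the OB culture, 3.0-fold higher; leaving out shared probe sets gave 0.89 on the log2 scale. Apoe, the main apolipoprotein of astrocytes, chosen after its value was seen, had 7713 and 9548, a 1.2-fold difference.

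Antioxidant and detoxification genes were higher in the SVZ culture in 13 of 46 and in the OB culture in 4, with a median of 0.17 that becomes -0.28 with the added RNAs set equal. Hmox1, the inducible haem oxygenase, had 3162 in the SVZ culture and 401 in the OB culture, 7.9-fold higher. Gpx3, a secreted glutathione peroxidase, had 1102 and 147, 7.5-fold higher. Cyp1b1, a steroid and xenobiotic oxidase, had 7829 and 1176, 6.7-fold higher. Cbr2, a carbonyl reductase, was the widest exception at 946 in the OB culture and 2.6 in the SVZ culture, at least 7.8-fold higher. Unfolded protein and heat shock genes were divided, 7 of 36 being higher in the SVZ culture and 6 in the OB culture with a median of -0.18. Ddit3, the stress factor CHOP, had 1919.7 in the SVZ culture and 318 in the OB culture, 6.0-fold higher. Ppp1r15a, which reverses the block of translation in stress, had 3149.9 and 586, 5.4-fold higher. Atf3, a stress factor, had 1173 and 253, 4.6-fold higher. Sdf2l1, a chaperone partner in the endoplasmic reticulum, had 349.9 in the OB culture and 99.9 in the SVZ culture, at least 2.9-fold higher. Pdia6, a disulphide isomerase, had 2119 and 889, 2.4-fold higher; averaging its probe sets gave -0.63 on the log2 scale. Xbp1, a transcription factor of the unfolded protein response, had 2759.9 in the OB culture and 1176 in the SVZ culture, 2.3-fold higher. Hspb1, a small heat shock protein, had 3177 and 1480.3, 2.1-fold higher, with -0.98 on the log2 scale from its second probe set. Genes of the list thus lay on both sides. S100 and annexin genes were higher in the OB culture in 4 of 14 and in the SVZ culture in 1. Anxa1, an anti-inflammatory annexin, had 8106 in the OB culture and 1292 in the SVZ culture, 6.3-fold higher.

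Of 6 sex-linked transcripts compared, 2 were higher in the OB culture and 0 in the SVZ culture, with a median of -0.64. Kdm6a, counted besides Xist, had 397 in the OB culture and 154 in the SVZ culture, 2.6-fold higher. Its second probe set gave a log2 difference of -0.77. For Xist, the transcript that silences one X in females, the signals were 1109.5 in the OB culture and 11 in the SVZ culture, at least 9.1-fold higher. Eif2s3y, a Y-linked translation factor chosen after its value was seen, had 219 in the SVZ culture and 18.7 in the OB culture, at least 1.8-fold higher. Of the 2 cultures, Xist was thus above the floor only in the OB culture and Eif2s3y only in the SVZ culture. Eif2s3y is the only Y-linked transcript given and was short of 2-fold. The sex of the pups behind the cultures cannot be told apart from region.

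A second probe set of the same gene was the only check on measurement that a single pair of arrays allows. Of the 718 genes higher in the SVZ culture, 251 had a second probe set above the floor; 244 of these differed the same way and 164 did so by 2-fold or more. Of the 666 genes higher in the OB culture, 247 had one. Of these, 238 differed the same way and 142 did so by 2-fold or more. Called genes whose second probe set was below the floor in both cultures are not in these counts. Among them are Ntn1, Spon1, Cxcl11, Aldh1l1, Ptch1, Gad1, Lif, Inhbb, Rxra, Igfbp7, Ngfr, Pdia6, Six3, Col5a3 and Kit. Second probe sets pointing the other way by 2-fold were found for 2 genes, Pdlim7 and Zfp24, both called higher in the SVZ culture and chosen here after their values were seen. A spread was taken over the 2080 genes whose first and second probe sets were both above the floor in both cultures. Genes whose fold is a lower bound are not among them. The 2 differences of a gene disagreed with a standard deviation of 0.47 on the log2 scale. It was 0.36 when estimated from the median absolute deviation, which gives wide disagreements little weight. The 2-fold mark is 1 on that scale. This spread covers the probes of 1 hybridisation and not the spread between cultures.

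**Figure D4:**
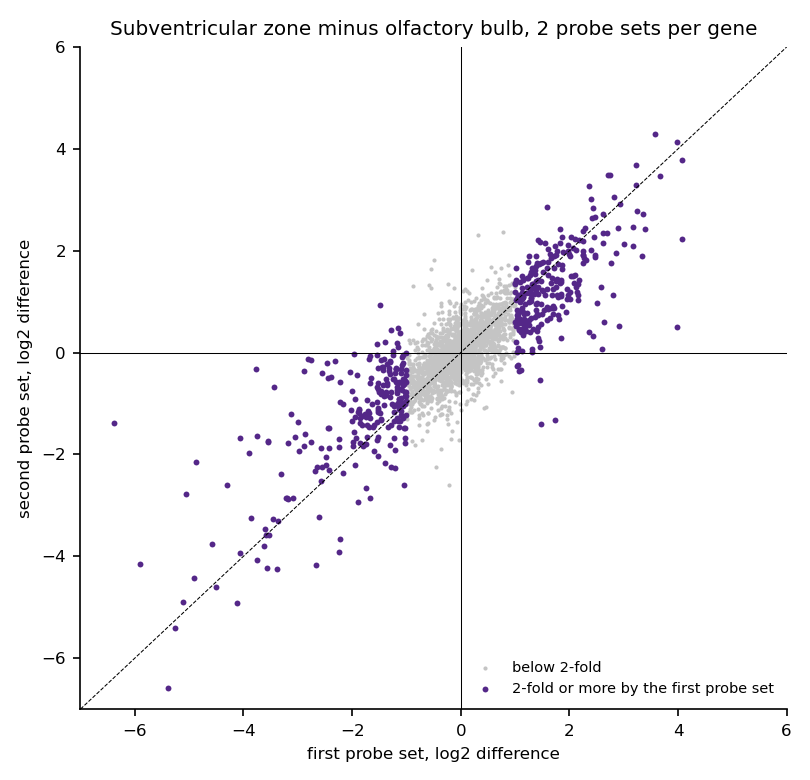
The log2 difference, SVZ minus OB, from the probe set used for each gene (horizontal) is plotted against that from its second probe set (vertical); the dashed line marks equality and purple points are genes 2-fold or more apart. Most purple points lie to the lower left and the upper right of the zero lines, 244 of 251 on the SVZ side and 238 of 247 on the OB side.

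The ventral mesencephalon and hippocampus arrays show where these differences sit among the 4 cultures. For each gene, each of these 2 signals was placed nearer to the SVZ or nearer to the OB signal on the log2 scale. Of the 718 genes higher in the SVZ culture, both were nearer to the OB signal in 141 (19.6%) and both nearer to the SVZ signal in 166 (23.1%). Among all 3728 genes with SVZ above OB by any amount, the shares were 24.3% and 23.3%. Genes in the first class have the SVZ culture apart from the rest: among those named, Crym was at 255 in the ventral mesencephalon culture and 65.7 in the hippocampus culture, and Spon1 at 22.9 and 197. Of the 666 genes higher in the OB culture, both others were nearer to the SVZ signal in 191 (28.7%) and both nearer to the OB signal in 101 (15.2%), beside 33.8% and 16.8% of the 3819 genes with OB above SVZ by any amount. Sfrp4, Gjb2 and Slc4a10 belong to the class with the OB culture apart, with 287 and 292, 413 and 230.2, and 96.9 and 113 in the ventral mesencephalon and hippocampus cultures. Lyz2 was near the OB level in the hippocampus culture at 9016 and below the floor in the ventral mesencephalon culture at 82.3. Csf1r showed the same pattern, at 5099 and 90.9. Thbd showed the reverse, at 285 in the hippocampus culture and 5382 in the ventral mesencephalon culture. Col3a1 was high in both, at 5270.5 and 9394, so the SVZ culture alone had a low signal.

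**Figure D5:**
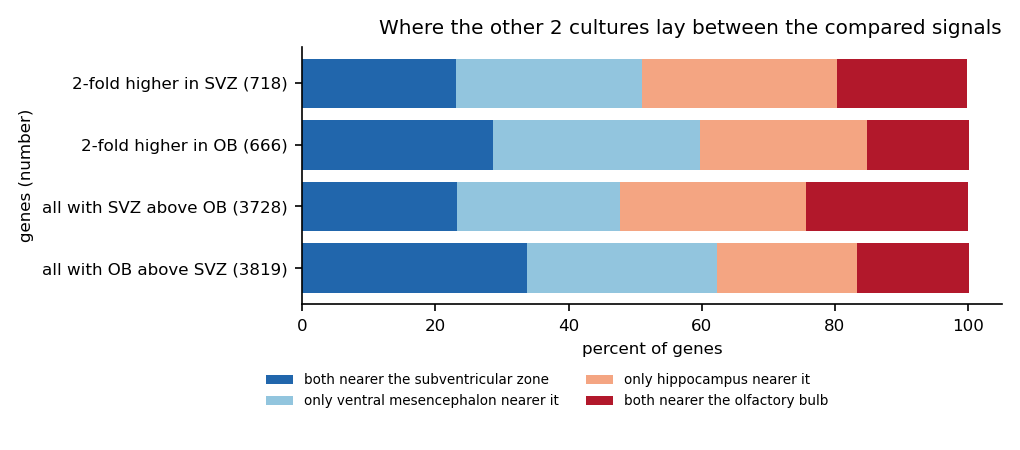
Bars give, for genes 2-fold or more higher in the SVZ or OB culture and for all genes by the sign of their difference, the percent whose ventral mesencephalon and hippocampus signals were both nearer the SVZ signal (dark blue), only the first (light blue), only the second (light red), or both nearer the OB signal (dark red). The dark red share is 19.6% for genes 2-fold higher in the SVZ culture, beside 24.3% for all genes with SVZ above OB; the dark blue share is 28.7% for genes 2-fold higher in the OB culture, beside 33.8%.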

How the data were processed

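RNA from primary astrocyte cultures was hybridised to 1 Affymetrix mouse array per region. The deposited values are signal intensities on a linear scale made by the authors with GCOS 1.4, per the submitters' processing notes; the algorithm and any detection calls are not used here. Means trimmed by 2% at each end lay between 400.1 and 400.2 on all 4 arrays, so each had been scaled to one target. Of 22690 probe sets, 20380 had 1 gene symbol, 691 several, 1555 none and 64 were controls, and 20351 of those with 1 symbol matched RefSeq; names come from the platform's annotation.

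Signals were raised to 122.1, the median of all probe sets and arrays, and taken to log2. Where a gene had several probe sets (4956 genes), the one brightest on average over the 4 arrays in log2 stood for it. Genes above the floor on the SVZ or OB array were compared, and a difference of 1 on the log2 scale (2-fold) was counted. No test, p-value or error between cultures was possible, since each region has 1 array; the number of arrays limits the precision. On the SVZ and OB arrays 11184 and 11144 probe sets were above the floor, the 3′ to 5′ signal ratio was 0.91 and 0.92 for Gapdh and 1.46 and 1.3 for actin, and the 99th percentile was 6941 and 6863.

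A naming rule took the 15 widest differences each way and up to 4 members each way of each of 52 gene lists. Where no member of a list was 2-fold apart it took the 2 of highest signal. A fixed set of astrocyte and progenitor genes was added. Not every gene that the rule took is described in the text. Genes outside the rule are said to be chosen after their values were seen. The comparison, the genes and the lists were chosen with earlier results of these data known. Alternatives were other floors, no floor, an added constant of 64, quantile normalization, centring, other probe set rules and, added after seeing the data, scaling to hybridisation controls and leaving out members of other lists. Python 3.11.15, numpy 2.4.6, pandas 2.3.3 and matplotlib 3.10.9 were used, and the steps were checked on simulated data.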

Additional observations from a re-analysis of the deposited data

How the results depend on the processing

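With 1 array per region no replicate could be left out and no paired analysis was possible because each group has a single sample. The counts of 718 and 666 genes became 1284 and 1169 with the floor at the 25th percentile, where more genes are compared, and 388 and 345 with the floor at the 70th percentile, where fewer are. Setting the hybridisation controls equal, an alternative added after seeing the data, gave 372 and 1439 and turned the sign of 15 of 51 list medians; which scale is closer to the cells' RNA was not tested. With no floor the counts were 944 and 881, with the mean of all probe sets 592 and 518, with unshared probe sets 564 and 543, and with probe sets counted in place of genes 1047 and 943; an added constant, a floor from the 2 arrays, quantile normalization, centring and another choice of probe set gave 713 to 738 on the SVZ side and 656 to 690 on the OB side. Of 265 genes chosen by the naming rule 260 were 2-fold apart, and 89 of these fell under 2-fold in at least 1 setting, 47 with the floor at the 70th percentile, 33 with the mean of all probe sets and 26 with the hybridisation controls set equal; 2 reversed: H2-D1 went from 1.98 to -0.23 on the log2 scale with the mean of all probe sets, and Cdc20 from -1.11 to 0.38 with unshared probe sets. Genes near the floor are measured poorly, and the error between arrays could not be measured.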

Other observations

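Genes that belong to no list above, all chosen after their values were seen, lay on both sides. Nfil3, a circadian and immune repressor, had 2338 in the SVZ culture and 209 in the OB culture, 11.2-fold higher. Bhlhe40, a clock-linked repressor, had 2104 and 263, 8.0-fold higher. Nfkbiz, a nuclear regulator of NF-kappaB targets, had 3719.7 and 400.5, 9.3-fold higher. Coagulation genes lay on both sides. F3, the tissue factor that starts clotting, had 4675 in the SVZ culture and 574 in the OB culture, 8.1-fold higher. Tfpi, the inhibitor of that factor, had 1119 in the OB culture and 57.6 in the SVZ culture, at least 9.2-fold higher, and Thbd, another anticoagulant, was higher in the OB culture as well. The starter of clotting and its inhibitor thus differed in opposite directions. St8sia2, which makes the polysialic acid of migrating neuroblasts, had 1872 in the SVZ culture and 197 in the OB culture, 9.5-fold higher.

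The genes and families in this paragraph were also chosen after their values were seen, the families from many that share a symbol stem. Over all genes compared, 9.51% were 2-fold or more higher in the SVZ culture and 8.82% in the OB culture. Septin genes, whose proteins form filaments at membranes, were 2-fold or more higher in the SVZ culture in 5 of 8 and in the OB culture in 0. Their median log2 difference was 1.08. Septin4 had 886 in the SVZ culture and 82.8 in the OB culture, at least 7.3-fold higher. Dusp genes, which encode phosphatases that switch off MAP kinases, were higher in the SVZ culture in 5 of 13 and in the OB culture in 0. Dusp14 had 442 and 77.6, at least 3.6-fold higher. Solute carriers, the largest family, split 20 and 16 of 133. Imprinted genes, which are expressed from one parental copy, lay on both sides: besides Igf2, Grb10, an adaptor that restrains growth signalling, had 6263 in the OB culture and 462 in the SVZ culture, 13.6-fold higher, with -0.32 on the log2 scale from its second probe set. Plagl1, a growth-regulating zinc finger factor, had 7234 in the SVZ culture and 1089 in the OB culture, 6.6-fold higher. Myh1, a skeletal muscle myosin, had 1411 in the OB culture and 0.4 in the SVZ culture, at least 11.6-fold higher.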
